A study of Mus musculus with 90 samples.

Results

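The collagen genes of the mouse liver were taken as every RefSeq mRNA in the RNA table whose symbol is Col, digits, a and digits, which gave 44 genes of 24312 gene symbols. A gene with several RefSeq IDs was represented by the ID of highest mean, so that 44 of 59 IDs were used. Gene expression was measured in liver RNA of 54 mice in 5 experiments, all on night-restricted feeding (NRF), with livers taken at zeitgeber time (ZT) 10 or at ZT14 with or without a meal.

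In the obesity experiment, wild-type C57BL/6 mice received a high-fat diet or chow for 10 weeks from 5 weeks of age, then NRF, and were lean unfed, obese unfed, lean fed, or obese fed at ZT14 (3 mice each). In the L-GRKO experiment, all mice carried 2 floxed alleles of Nr3c1, the gene of the glucocorticoid receptor (GR), and were unfed at ZT14 after AAV-Cre (L-GRKO) or AAV-GFP (4 mice each). The virus used a hepatocyte promoter, so that GR of other liver cells was not targeted, and these mice were adult, with no age in weeks given in the sources used here. By the study's methods, the GR fl/fl, NRF, and injected mice were C57BL/6N and the L-IRSdKO mice had a C57BL/6J background, whereas the labels give C57BL/6 for all. In the L-IRSdKO experiment, all mice were 10 weeks old, carried floxed Irs1 and Irs2 (insulin receptor substrates), received the glucocorticoid dexamethasone (dex) before the meal, and were fed at ZT14. The L-IRSdKO mice (4) also carried Alb-Cre, which acts in hepatocytes, and the Irs fl/fl mice (4) did not. The comparison thus holds dex and feeding alike in both groups. The titles of these controls name floxed alleles, whereas their descriptions and the study call them wild type. The NRF experiment compared 10-week-old wild-type mice at ZT10, ZT14-unfed, and ZT14-fed (2 mice each). The injected wild-type mice, 10 weeks old, were unfed vehicle, fed vehicle, fed dex, fed S961 (an insulin receptor antagonist), or fed dex + S961 (4 mice each).

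Collagens are secreted or membrane-bound proteins of 3 chains wound into a triple helix. Fibrillar chains (types I, II, III, V, XI, XXIV, and XXVII) build fibres, and only some of these types accumulate in liver fibrosis. Type IV builds basement membranes, type VI forms beaded filaments, and FACIT collagens (such as types XIV and XX) bind the surface of fibres. Type XIII spans the membrane, and the multiplexins (types XV and XVIII) sit at basement membranes, with endostatin cut from the end of type XVIII. In healthy liver, stellate cells and portal fibroblasts are known as the main makers of the fibrillar chains, whereas hepatocytes are known to make type XVIII. RNA of whole liver was measured, and fewer cells of a type and less RNA per cell cannot be told apart.

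Values are RPKM, reads divided by transcript length and by sequencing depth. Differences are log2 fold changes of log2(RPKM + 0.5) from limma, with a standard error (SE) and a p-value adjusted over all tested genes by Benjamini-Hochberg. This scale understates the change of low genes. Tested were the genes whose average reached 0.5 RPKM in an experiment, and an adjusted p under 0.05 was called. Of the 44 collagen genes, 12 passed this filter in all 5 experiments, 6 in some, and 26 in none. The filter was passed by 15 members in the obesity experiment, 15 in the L-GRKO experiment, 16 in the L-IRSdKO experiment, 14 in the NRF experiment, and 12 in the injected mice.

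Col18a1 was the most abundant collagen mRNA in every library. Its level was 110 to 170 RPKM in the obesity experiment, 126 to 156 RPKM in the L-GRKO experiment, 89.5 to 99.7 RPKM in the L-IRSdKO experiment, 81.1 to 101 RPKM in the NRF mice, and 47.7 to 135 RPKM in the injected mice. It held 55.3 to 83.6% of the summed RPKM of the 44 genes in a library. The next by mean was Col27a1 (a fibrillar chain) in the obesity, L-GRKO, and L-IRSdKO experiments and Col14a1 (a FACIT chain) in the NRF and injected mice. Col4a1 (basement membrane), Col5a3 (a fibrillar chain of type V), Col3a1 (the fibrillar chain of type III), and, in L-IRSdKO, Col13a1 (a membrane collagen) followed in an order that differed between experiments. Col1a1, a main chain of scar tissue, was at only 0.091 to 1.76 RPKM over all libraries. Levels were not compared across experiments, because the highest RPKM of any gene was 674 to 914 in the L-IRSdKO experiment and 18853 to 60597 in the others.

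**Figure D1:**
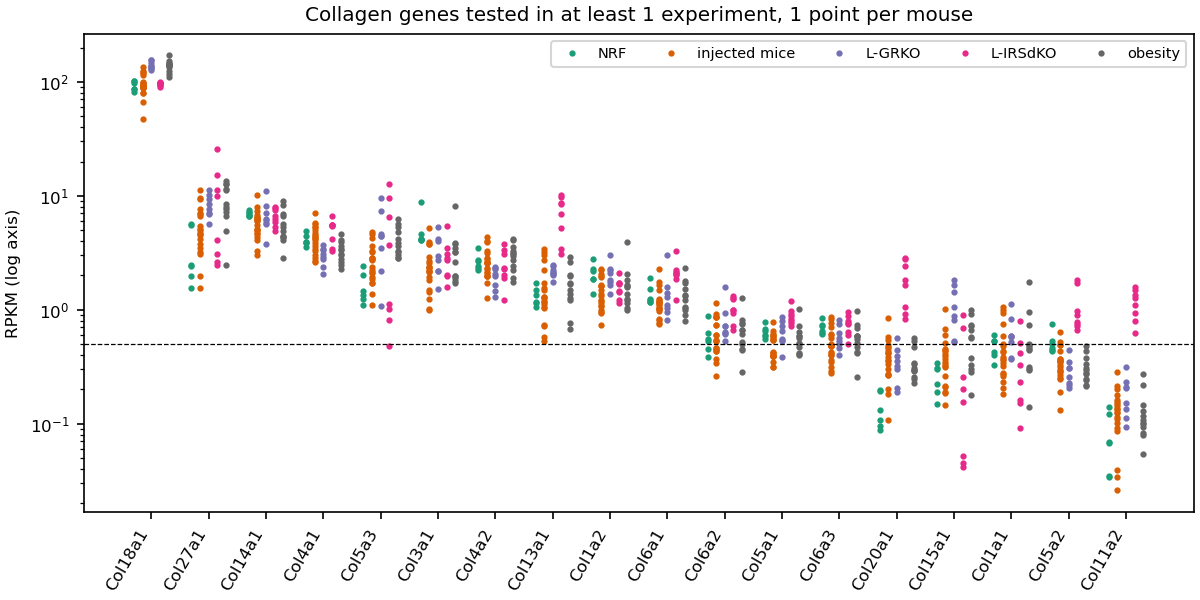
RPKM (log axis) of the 18 collagen genes that passed the filter in at least 1 experiment, with 1 point per mouse, 5 experiments by colour, and the dashed line at 0.5 RPKM. Col18a1 lies above 47 RPKM in every mouse and no other collagen gene above 26 RPKM.

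Depth as implied by the size of 1 read in the low values was 16.9 to 62.3 M (1e6) reads in the obesity experiment, 15.2 to 27.2 M in L-GRKO, and 3.64 to 4.48 M in L-IRSdKO, where a gene of 0.5 RPKM with a transcript of 5 kb rests on about 9.1 reads in the shallowest library. It was 26 to 38.3 M in the NRF mice and 6.47 to 13.4 M in the injected mice. The study's own summary of its sequencing lists read counts close to the implied depth for the obesity mice. For every library of the L-IRSdKO experiment it lists more reads than the implied depth, and the reason was not tested. The target gene Nr3c1 was at 12.8 to 16.2 RPKM in AAV-GFP mice and 3.93 to 5.35 RPKM in L-GRKO mice. Irs1 was at 2.21 to 4.73 RPKM in Irs fl/fl mice and 0.149 to 0.321 RPKM in L-IRSdKO mice. Irs2 was at 0.614 to 5.61 RPKM and 0.272 to 1.00 RPKM, so that its groups overlap. Alb, the hepatocyte marker, was the highest gene in all libraries but 3 of L-IRSdKO mice. The adipocyte marker Plin1 was at or near 0 in the obesity and L-IRSdKO libraries, but the sum over 5 adipocyte markers was not. This sum was 6.31 to 14.5 RPKM in Irs fl/fl and 3.20 to 16.5 RPKM in L-IRSdKO mice, with overlap. It was 1.08 to 44.4 RPKM in obese unfed mice.

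Loss of both insulin receptor substrates gave the largest differences of a tested collagen gene among the 14 comparisons. In L-IRSdKO livers Col5a3 and Col27a1 fell and Col13a1 rose, which is 3 of 16 tested members, beside 17.4% of 12966 tested genes called in this comparison. The other 13 members did not pass the test. Col5a3, the alpha3 chain of type V, which regulates the assembly of fibres, was at 12.7, 9.54, 6.46, and 3.70 RPKM in the 4 Irs fl/fl mice. It was at 0.812, 1.13, 1.02, and 0.478 RPKM in the 4 L-IRSdKO mice. The lowest control lay above the highest knockout, although the controls spread widely among themselves. The fall was 2.56 on the log2 scale (SE 0.34, adjusted p = 0.0036), or 5.91-fold lower in RPKM + 0.5. The group means were 8.09 RPKM in Irs fl/fl and 0.86 RPKM in L-IRSdKO mice.

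Col27a1, a fibrillar chain best known from cartilage, was at 25.9, 15.3, 11.3, and 9.96 RPKM in Irs fl/fl mice. In L-IRSdKO mice it was at 4.07, 3.06, 2.64, and 2.46 RPKM. The groups were again apart, and the fall was 2.10 on the log2 scale (SE 0.28, adjusted p = 0.0036), or 4.29-fold lower. In both genes Irs fl/fl replicate 1 had the highest and replicate 4 the lowest value of the controls. Without the former mouse, or without any other library, both calls held, with adjusted p up to 0.013 for Col5a3 and up to 0.015 for Col27a1.

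Col13a1, a membrane-spanning collagen found at cell contacts, was at 5.23, 3.11, 6.93, and 3.39 RPKM in Irs fl/fl mice. It was at 10.1, 8.54, 8.65, and 9.70 RPKM in L-IRSdKO mice, all above the controls. The rise was 0.98 on the log2 scale (SE 0.22, adjusted p = 0.019). Without L-IRSdKO replicate 4 the adjusted p was 0.057, so that this call rests on that library.

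The basement membrane chains Col4a1 and Col4a2, whose genes start head to head, had positive differences that did not pass. Col4a2 was at 1.23 to 2.28 RPKM in controls and 2.33 to 3.75 RPKM in knockouts (log2 difference 0.63, adjusted p = 0.057). Col4a1 was at 3.26 to 5.59 RPKM in controls and 5.42 to 6.66 RPKM in knockouts, with 0.48 and an adjusted p of 0.084. Col18a1 was at 93.4 ± 3.13 RPKM (SD, n = 4) in controls and 98.3 ± 1.24 RPKM in knockouts (0.08, adjusted p = 0.35). Its level lies nearer to the highest value of any gene in these libraries than in the other experiments, and what this does to its difference was not tested.

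Col3a1 was at 1.99 to 5.39 RPKM in controls and 1.60 to 3.06 RPKM in knockouts (log2 difference -0.42, adjusted p = 0.33). Col14a1 was at 4.87 to 7.46 and 5.88 to 7.90 RPKM (0.19, adjusted p = 0.46). The type VI chains Col6a1, Col6a2, and Col6a3 had differences of -0.25, 0.08, and -0.14. Of the 7 tested fibrillar genes, 2 fell and 5 did not pass, and the median over the list was -0.22, beside 0.03 over all genes. Over all 16 tested members 9 were higher and 7 lower in L-IRSdKO, with a median of 0.08. The fibrillar chain Col1a1 was below the filter, at 0.326 to 0.798 RPKM in controls and 0.091 to 0.232 RPKM in knockouts.

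**Figure D2:**
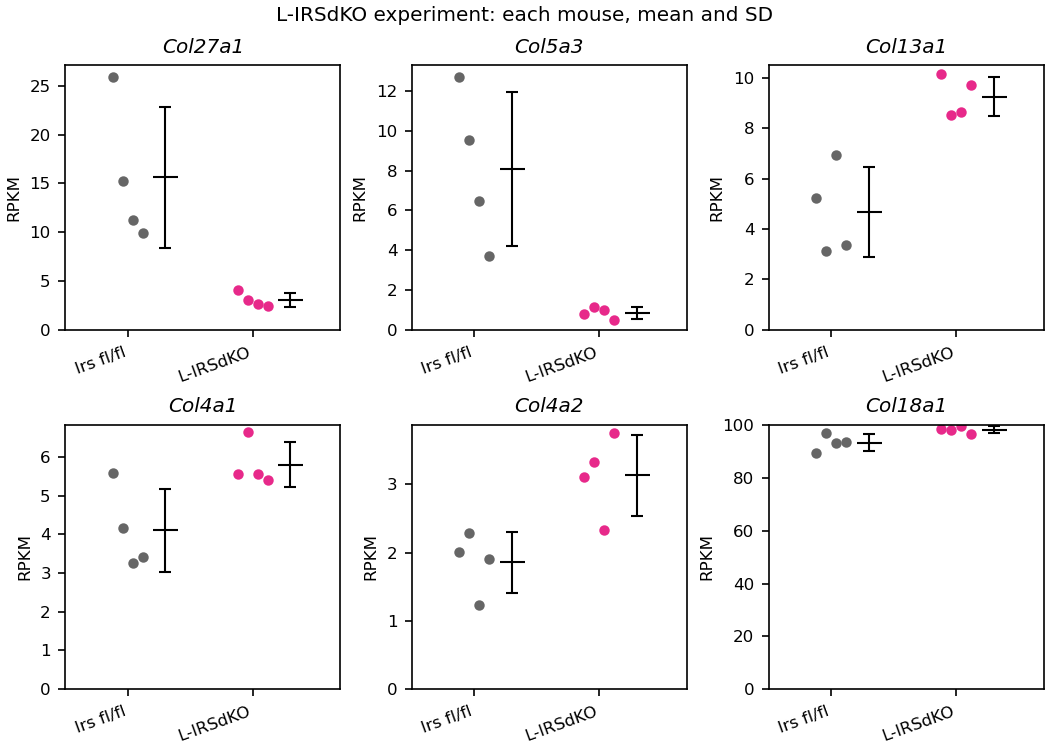
RPKM per mouse (points), mean and SD (bars) for 6 collagen genes in Irs fl/fl and L-IRSdKO livers (4 mice each). Col27a1 and Col5a3 are lower and Col13a1 higher in every L-IRSdKO mouse than in any control, whereas Col4a1 and Col18a1 overlap.

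Markers of other cell types differed between the same mice. Of 11 sinusoidal endothelial markers, 9 rose in L-IRSdKO, among them Lyve1 (1.47 on the log2 scale) and Ehd3 (0.95), and the summed level was 216 to 237 RPKM in controls and 296 to 334 RPKM in knockouts. Of 10 tested stellate cell markers, 5 rose, with Hgf at 0.90 and Rgs5 at 0.58, and the sum over all 12 was 153 to 179 RPKM and 208 to 222 RPKM. These moved in the direction of Col13a1 and opposite to Col5a3 and Col27a1. Of 9 Kupffer cell markers, 3 rose (Timd4 by 0.64), with sums of 218 to 384 and 370 to 449 RPKM that overlap. Of 4 tested cholangiocyte markers, Spp1 and Krt7 fell (by 1.65 and 1.14), and the sum over 8 was 19.9 to 46.5 RPKM in controls and 8.28 to 15.2 RPKM in knockouts, which is the direction of Col5a3 and Col27a1. The defining cholangiocyte markers Krt19 and Epcam were at 0.301 to 1.19 and 0.242 to 0.534 RPKM in controls. Neither was called, so that the calls of this list are of Spp1 and Krt7 alone. Of the 6 myofibroblast markers only Mylk was called, with a fall of 0.67. The sum over the 6 was 43.0 to 51.7 RPKM in controls and 25.9 to 37.2 RPKM in knockouts. The part of these cell types in the collagen differences was not tested.

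Genes that act on collagens were taken from fixed lists. Of 19 tested genes of collagen modification and folding, 2 rose, P3h4 by 1.27 and Crtap, a partner in proline 3-hydroxylation, by 0.49. In the same list 3 fell, among them Ppib and Plod3 (by 0.44 and 0.31). Of 7 tested genes of collagen breakdown, Mmp14, a membrane-bound collagenase, rose by 0.83 and Timp3, a metalloproteinase inhibitor, by 0.72, whereas Mmp19 fell by 0.69 and Pepd, which cleaves proline dipeptides, by 0.36. Of 22 tested other matrix genes, 5 rose and none fell, among them Thbs2 (0.72), the basement membrane genes Nid1 (0.66) and Hspg2 (0.61), and the fibre-binding Dcn (0.28). Of 17 tested genes of TGF-beta and PDGF signalling, 4 rose and 2 fell, with the receptors Tgfbr2 at 1.66 and Tgfbr3 at 1.43, the target Ccn2 at 0.69, and the ligand Pdgfc at -0.82. None of 8 tested genes of propeptide cleavage and cross-linking and none of 6 collagen receptors passed.

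Col5a3 and Col27a1 each held an intronic site listed for both GR and FOXO1, the forkhead factor that insulin signalling keeps out of the nucleus, within a DNase I hypersensitive site. FOXO1 and GR sites were listed as positions only, with no height, so occupancy could not be compared. By the study's account the peaks were identified in unfed mice, whereas the mice of the L-IRSdKO experiment were fed and received dex. Col5a3 (mm9, chr9:20574494-20619511, minus strand) held the pair 10548 bases inside its start. Col27a1 (chr4:62875038-62996025, plus strand) held it 43409 bases inside. The sequences of both regions (union of the GR and FOXO1 peaks, genome plus strand, read from mm9) are shown because these are the 2 members of largest difference. Capitals mark GTAAACA, the reverse complement of the forkhead motif TGTTTAC.
Col5a3 intron, chr9:20608845-20609053: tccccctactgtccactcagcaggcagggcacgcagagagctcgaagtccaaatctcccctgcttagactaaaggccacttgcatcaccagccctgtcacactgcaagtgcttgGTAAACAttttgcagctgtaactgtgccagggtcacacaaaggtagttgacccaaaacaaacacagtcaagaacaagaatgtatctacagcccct
Col27a1 intron, chr4:62918358-62918597: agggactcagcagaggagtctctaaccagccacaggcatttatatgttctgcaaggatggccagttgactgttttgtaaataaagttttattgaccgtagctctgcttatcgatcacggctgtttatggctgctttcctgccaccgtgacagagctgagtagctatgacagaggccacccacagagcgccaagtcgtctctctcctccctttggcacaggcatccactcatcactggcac
The Col5a3 region held 1 match and the Col27a1 region none of TGTTTAC on either strand, and neither held the GR half-site pair ACANNNTGT. TGTTTAC was found in 18.8% of the 8546 FOXO1 peaks, 7.29% of the 10446 GR peaks, and 4.66% of the 83592 hypersensitive sites, and ACANNNTGT in 12.7%, 20.3%, and 6.45%, all in windows of 180 bases. A match is a run of letters, not a shown binding event. Only these exact patterns were searched, so other forms of either motif were not counted.

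Such pairs were not shared by all members that moved, nor limited to them. Col14a1, called in no comparison, had such a pair 4275 bases upstream of its start. Col13a1 (chr10:61300984-61441856, minus strand) had no GR or FOXO1 peak within 50 kb of its start, and the nearest GR peak was 244607 bases away. Col15a1 (chr4:47221033-47326039, plus strand) held 2 overlapping GR and FOXO1 peaks in introns, at 31067 and 85923 bases. Col18a1 (chr10:76514923-76629293, minus strand) held 3 such pairs, at 49837, 62642, and 74779 bases from its upstream start. A second start of Col18a1 lies 52.8 kb inside the gene, and the first of these GR peaks lies 3006 bases upstream of it. Of 15 members tested in the obesity experiment, 5 had a GR peak and 5 a FOXO1 peak within 50 kb of their start (33.3% each), beside 48.3% and 51% of the 9970 other tested genes with a position.

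Loss of GR in hepatocytes called no collagen gene. Of 15 tested members 0 passed in limma, beside 6.68% of 11649 genes, and 1 had an unadjusted p under 0.05. The differences were small and mostly positive, with 14 of 15 members higher in L-GRKO and a median of 0.21 (0.08 over all genes). The exception was Col13a1, at 2.07 to 2.47 RPKM in AAV-GFP mice and 1.75 to 2.23 RPKM in L-GRKO mice (-0.13). Leaving out L-GRKO replicate 1, the highest mouse of its group in 9 of 15 members, gave 12 of 15 higher and a median of 0.11.

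Col5a3 varied most. It was at 4.43, 2.21, 1.09, and 7.41 RPKM in AAV-GFP mice and at 3.48, 4.46, 4.60, and 9.64 RPKM in L-GRKO mice. The groups overlap through a wide spread of the controls, and the difference was 0.65 (SE 0.44, adjusted p = 0.47). Col27a1 was at 7.66, 5.63, 7.01, and 8.40 RPKM in AAV-GFP mice and at 6.95, 10.1, 9.46, and 11.3 RPKM in L-GRKO mice. Of the L-GRKO mice 3 lay above all controls and 1 among them, with a difference of 0.37 (SE 0.16, adjusted p = 0.22). The 95% interval of -0.33 to 1.63 for Col5a3 and of 0.02 to 0.72 for Col27a1 does not reach falls of the size seen in L-IRSdKO. Meal state, dex, and depth differ between these experiments, and the differences were not tested against each other.

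Col14a1 was at 6.21, 3.80, 5.76, and 7.06 RPKM in AAV-GFP mice and 10.98, 8.08, 6.16, and 5.65 RPKM in L-GRKO mice, with overlap (0.39, adjusted p = 0.36). Col3a1 was at 1.51 to 4.19 and 2.17 to 5.29 RPKM (0.39, adjusted p = 0.49), and Col4a1 at 2.08 to 3.34 and 2.79 to 3.69 RPKM (0.21, adjusted p = 0.50). Col18a1 was at 136 ± 8.9 RPKM (SD, n = 4) and 145 ± 11.7 RPKM, a difference of 0.09 that was -0.01 after median-ratio scaling. AAV-GFP replicate 4 was the highest control in 13 of 15 members. Of 11 tested stellate markers Lrat, which stores vitamin A in these cells, rose by 0.47, and the sums overlap (69.2 to 104 and 91.1 to 112 RPKM over 12 markers). Of the 6 myofibroblast markers only Mylk was called, with a fall of 0.85. The sum over the 6 was 16.5 to 25.1 RPKM in AAV-GFP and 10.2 to 13.9 RPKM in L-GRKO mice. Of 6 tested cross-linking genes Tgm2, a transglutaminase, rose by 0.62. No gene of the modification, breakdown, receptor, signalling, or other matrix lists passed, although all 16 tested other matrix genes had a positive difference (median 0.25).

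In obesity the fibrillar collagens were not called, and 1 collagen gene fell in the unfed state. Of 15 tested members Col13a1 passed in unfed mice, beside 5.22% of 11434 genes. None passed in fed mice, beside 0.499%, where 2 had an unadjusted p under 0.05, and none over both meal states, beside 7.59%, with 4 under 0.05. Col13a1 was at 2.90, 1.69, and 2.63 RPKM in lean unfed mice and at 1.28, 0.765, and 0.675 RPKM in obese unfed mice. All obese mice lay below the lean ones. The fall was 1.05 on the log2 scale (SE 0.21, adjusted p = 0.021), or 2.06-fold lower in RPKM + 0.5. In fed mice it was at 1.36 to 1.71 RPKM (lean) and 2.03, 1.97, and 1.22 RPKM (obese), with overlap (0.13, adjusted p = 0.79). The test of the difference between the 2 meal states gave 1.17 (SE 0.30, adjusted p = 0.11) and did not pass. The unfed call did not hold without obese unfed replicate 2 or 3 or lean unfed replicate 1 or 3 (adjusted p up to 0.078), nor when only the compared groups were fitted (0.11).

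Sinusoidal endothelial markers moved the same way as Col13a1 in unfed mice. Of 11, 9 fell, among them Lyve1 by 1.04, Ehd3 by 1.02, Clec4g by 0.78, and Gpr182 by 0.71, and the sum was 132 to 160 RPKM in lean unfed and 72.6 to 98.8 RPKM in obese unfed mice. In fed mice none of 11 passed, and the sums were 92.4 to 103 and 87.7 to 98.3 RPKM. Their part in the fall of Col13a1 was not tested.

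The other 14 members were all higher in obese unfed mice, with a median over all 15 of 0.37 beside 0.07 over all genes, but none of them passed. Without the obese unfed mice, Col1a1 and Col15a1 averaged 0.467 and 0.477 RPKM, below the filter of 0.5 RPKM. Their place in this count thus rests on the group where they were high. In fed mice 13 of 15 were higher (median 0.21, beside 0.01). This was 11 of 15 without obese fed replicate 3 (median 0.15) and without lean fed replicate 1 (median 0.22). It was 14 of 15 without obese fed replicate 1 (median 0.32). In the obese fed group, replicate 3 was highest in 11 of 15 members and replicate 1 lowest in 13. Without obese unfed replicate 2, 11 of 15 were higher in unfed mice and the median was 0.15. This mouse was the highest of its group in 11 of 15 members. Col3a1 was at 1.97, 3.78, and 1.73 RPKM in lean unfed mice and 3.50, 8.08, and 2.63 RPKM in obese unfed mice, a difference of 0.73 (SE 0.38, adjusted p = 0.27) that was 0.30 without that mouse. Col1a1 was at 0.294, 0.731, and 0.140 RPKM and 0.440, 1.76, and 0.456 RPKM (0.57, adjusted p = 0.36, and 0.15 without it). Col1a2 was at 1.00 to 1.62 and 1.38 to 3.93 RPKM (0.52, adjusted p = 0.29, and 0.16 without it). The 3 fibrillar genes of types I and III thus had 1 high mouse rather than 3.

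The same mouse had the highest sum of adipocyte markers, 44.4 RPKM over 5 genes, beside 1.08 and 4.26 RPKM in the other obese unfed mice and 2.31 to 2.87 RPKM in lean unfed mice. Of this, Cfd made 27.5 RPKM and Cidec, named after its value was seen, 16.9 RPKM, whereas the defining markers Adipoq, Plin1, and Lep were listed at 0. Its stellate marker sum of 111 RPKM lay within the 96.1 to 134 RPKM of lean unfed mice. No stellate marker of 10 tested passed in unfed or fed mice, and 10 of 10 were higher in obese fed mice (sums of 70.2 to 97.4 and 103 to 123 RPKM). The part of these in the collagen values was not tested.

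None of the more abundant members passed between diets. Col18a1 was at 144, 142, and 144 RPKM in lean unfed and 142, 170, and 152 RPKM in obese unfed mice, with overlap (0.11, adjusted p = 0.47). In fed mice it was at 116, 110.5, and 125 RPKM (lean) and 145, 139, and 136 RPKM (obese), all obese above all lean (0.25, SE 0.08, adjusted p = 0.14). Over both meal states the difference was 0.18 with an adjusted p of 0.078. Col5a3 was at 2.86, 4.20, and 5.28 RPKM in lean unfed mice and 6.31, 4.86, and 5.68 RPKM in obese unfed mice (0.43, adjusted p = 0.15). In fed mice it was at 3.24, 2.85, and 3.05 RPKM (lean) and 3.30, 3.83, and 3.61 RPKM (obese), without overlap (0.20, adjusted p = 0.53).

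Col14a1 was at 6.91, 5.31, and 4.38 RPKM in lean unfed and 4.08, 8.92, and 6.65 RPKM in obese unfed mice (0.18, and -0.05 without obese unfed replicate 2). In fed mice it was at 4.45, 4.90, and 2.84 RPKM (lean) and 4.35, 5.70, and 8.38 RPKM (obese), with a difference of 0.53 (adjusted p = 0.35). Col4a1 was at 2.65, 2.78, and 3.07 RPKM in lean unfed and 3.00, 4.63, and 4.06 RPKM in obese unfed mice (0.38, adjusted p = 0.25), and Col4a2 at 2.22 to 3.12 and 3.16 to 4.21 RPKM (0.49, adjusted p = 0.22). In fed mice Col4a1 was at 2.30, 3.43, and 3.36 RPKM (lean) and 2.49, 3.61, and 3.96 RPKM (obese), with overlap (0.12, adjusted p = 0.77). The type VI chains had differences of 0.08 to 0.31 in unfed and 0.21 to 0.28 in fed mice, none past the test.

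**Figure D3:**
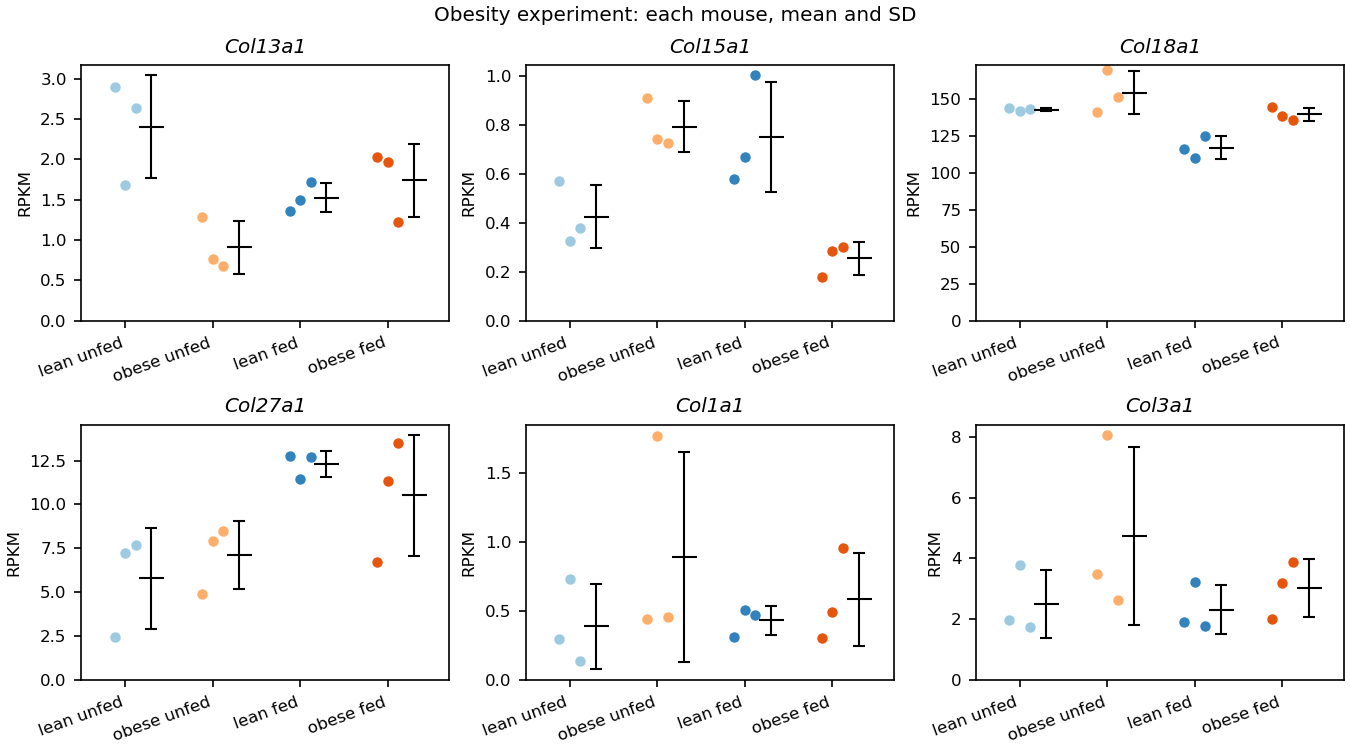
RPKM per mouse (points), mean and SD (bars) of 6 collagen genes in the 4 groups of the obesity experiment (3 mice each). Col13a1 is lower in every obese unfed than lean unfed mouse, Col15a1 is low in the 3 obese fed mice, and the high point of Col1a1 and Col3a1 is obese unfed replicate 2.

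Col15a1, a multiplexin of basement membranes, moved with the meal in obese mice. It was at 0.912, 0.743, and 0.726 RPKM in obese unfed mice and 0.179, 0.284, and 0.301 RPKM in obese fed mice. The groups did not overlap, and Col15a1 fell by 0.78 on the log2 scale with the meal (SE 0.16, adjusted p = 0.017), 1 of 15 members beside 7.65% of genes. Without obese fed replicate 2 or 3 this was not called (adjusted p up to 0.063). In lean mice it was at 0.570, 0.326, and 0.380 RPKM unfed and 0.578, 0.671, and 1.00 RPKM fed (0.43, adjusted p = 0.073). The obesity by meal interaction was -1.21 (SE 0.22, adjusted p = 0.038), 1 of 15 members beside 0.743% of genes. It did not hold in 10 of 12 fits that left out 1 library (adjusted p up to 0.10). Col15a1 passed the filter of 0.5 RPKM with a mean of 0.556 RPKM over the 12 mice, which is 0.477 RPKM without the obese unfed and 0.491 RPKM without the lean fed mice, so that its being tested rests on the groups where it was high. With no filter the adjusted p was 0.023 for the meal in obese mice and 0.055 for the interaction, which then did not pass. Between diets Col15a1 was 0.49 higher in obese unfed mice (adjusted p = 0.0995) and 0.72 lower in obese fed mice (adjusted p = 0.072), neither past the test. These 4 comparisons share the same 12 mice.

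With the meal, Col27a1 rose and Col18a1 fell in lean mice, 2 of 15 members beside 23.4% of genes. Col27a1 was at 2.47, 7.21, and 7.66 RPKM in lean unfed and 12.7, 11.4, and 12.7 RPKM in lean fed mice, with all fed mice above the unfed ones. The rise was 1.16 on the log2 scale (SE 0.37, adjusted p = 0.041). Without lean unfed replicate 1, the lowest mouse, it was 0.69 and not called. The call was also lost without any 1 of the lean fed mice or without obese fed replicate 2 (adjusted p up to 0.10). In obese mice Col27a1 was at 4.88, 7.91, and 8.50 RPKM unfed and 6.72, 11.3, and 13.5 RPKM fed, with overlap (0.52, adjusted p = 0.41), and the interaction did not pass (-0.64, adjusted p = 0.60). Col18a1 fell by 0.29 with the meal in lean mice (SE 0.08, adjusted p = 0.027), 1.22-fold, a call that was lost in 5 of 12 fits without 1 library (adjusted p up to 0.10). Of the 11 sinusoidal endothelial markers 8 also fell with the meal in lean mice, and their part was not tested.

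**Figure D4:**
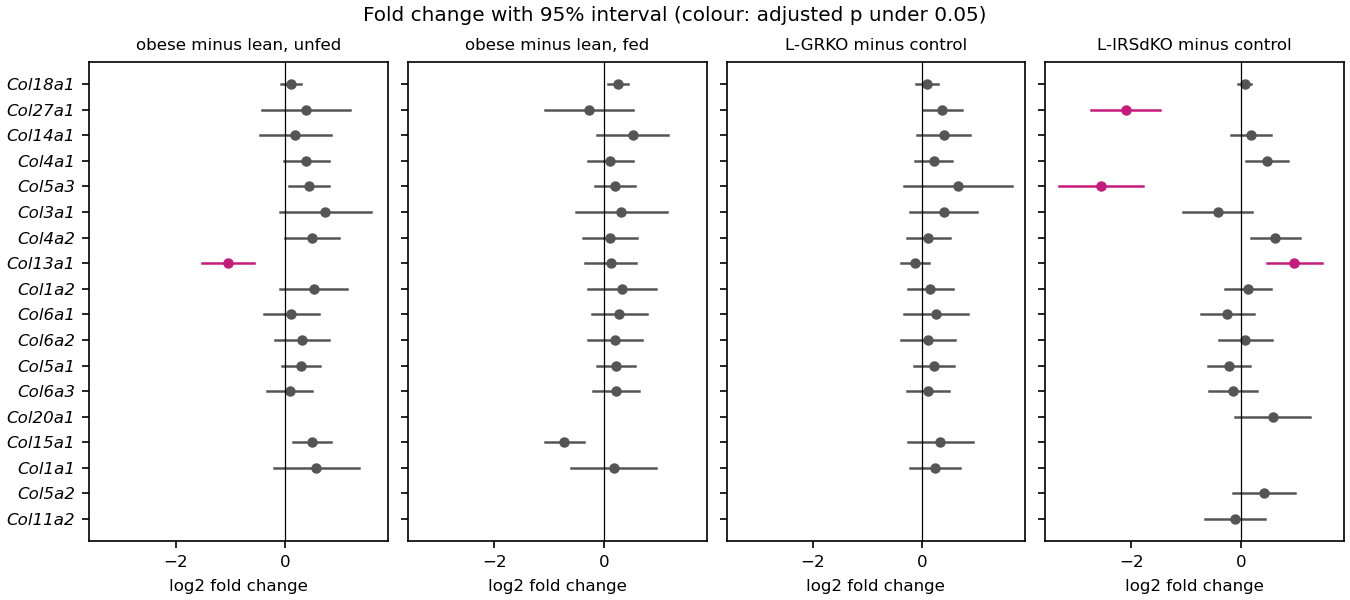
Log2 fold change (points) and 95% interval (lines) of the tested collagen genes in 4 comparisons, with colour where the adjusted p was under 0.05. Coloured are Col13a1 in unfed obesity and Col5a3, Col27a1, and Col13a1 in L-IRSdKO, and none in fed obesity or L-GRKO.

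In the other genes of the pathway obesity called few. In unfed mice Timp3 fell by 0.60, 1 of 5 tested breakdown genes, and of 13 tested signalling genes Pdgfa, a ligand of stellate cells, rose by 0.94 and Ccn2 fell by 0.99. None of 14 modification, 5 cross-linking, 18 other matrix, or 4 receptor genes passed in unfed mice, and no gene of these lists passed in fed mice. Over both meal states Fn1, the fibronectin gene, rose by 0.32 (1 of 18 other matrix genes) and Timp3 fell by 0.39 (1 of 5 breakdown genes), and no gene of the other 4 lists passed. Of 11 sinusoidal endothelial markers 6 fell in that comparison, among them Clec4g by 0.48 and Ehd3 by 0.46.

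In wild-type mice of the NRF experiment Col27a1 was again higher after the meal. It was at 1.98 and 2.42 RPKM at ZT10, 2.46 and 1.55 RPKM at ZT14-unfed, and 5.54 and 5.67 RPKM at ZT14-fed. The rise over ZT14-unfed was 1.31 on the log2 scale (SE 0.18, adjusted p = 0.012), 1 of 14 members beside 6.77% of genes. Without 1 or the other ZT14-fed mouse the adjusted p was up to 0.11, where the lone mouse left in the group is assumed to vary like those of the other groups. Col5a3 was at 2.42 and 2.02 RPKM at ZT10, 1.25 and 1.09 RPKM at ZT14-unfed, and 1.47 and 1.35 RPKM at ZT14-fed. It fell by 0.70 from ZT10 to ZT14-unfed (SE 0.13, adjusted p = 0.023), 1 of 14 members beside 8.95% of genes. Without 1 library, again with a lone mouse in 1 group, the adjusted p was up to 0.11 and above 0.05 in 4 of 6 fits.

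Markers of other cell types also differed between these mice. With the meal 2 of 3 tested mesothelial markers fell (Upk3b by 1.44, Msln by 1.33), with sums over 5 markers of 3.17 to 4.45 RPKM at ZT14-unfed and 0.734 to 0.783 RPKM at ZT14-fed. Of 11 sinusoidal endothelial markers Ehd3 fell by 0.71, and the sums were 110 to 119 and 92.1 to 102 RPKM. From ZT10 to ZT14-unfed Lyve1 rose by 1.46, 1 of 11, and Msln by 1.02, 1 of 3, with endothelial sums of 105 to 112 RPKM at ZT10 that overlap those at ZT14-unfed and mesothelial sums of 0.573 to 2.16 RPKM that do not. No stellate, myofibroblast, cholangiocyte, or Kupffer cell marker passed in either comparison. The part of these in the collagen differences was not tested. Of the pathway, Tgm2 rose by 0.71 and Pdgfa by 0.94 with the meal, and from ZT10 to ZT14-unfed P4ha1, a prolyl 4-hydroxylase subunit, rose by 1.76 and Tgfbr2 fell by 0.61.

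Col18a1 was at 101 and 96.7 RPKM at ZT10, 81.1 and 87.0 RPKM at ZT14-unfed, and 87.1 and 101 RPKM at ZT14-fed, with no call. Col14a1 was at 6.63 to 7.55 RPKM in all 6 mice, and Col4a1 was at 3.56 to 4.95 RPKM. Col3a1 was at 4.13 to 4.62 RPKM in 5 mice and at 8.81 RPKM in ZT10 replicate 2, which was also the higher ZT10 mouse in 12 of 14 members.

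In the injected mice the meal alone (3.13% of 11251 genes), dex (3.19%), and S961 (1.9%) called none of 12 tested members, with 1, 0, and 0 at an unadjusted p under 0.05. Dex and S961 together (10.6%) called Col4a1. It was at 3.39, 3.63, 5.05, and 4.25 RPKM in fed vehicle mice and 5.37, 5.34, 5.71, and 7.08 RPKM in fed dex + S961 mice, the latter all higher. The rise was 0.48 (SE 0.15, adjusted p = 0.043), while its head-to-head neighbour Col4a2 had -0.21 (adjusted p = 0.66). The Col4a1 call did not hold in 10 of 20 fits that left out 1 library, with adjusted p up to 0.13. With a term that sets replicate 4 of each group apart from replicates 1 to 3, as their library numbers in the labels do, its adjusted p was 0.023. In the same comparison, 5 of 14 modification genes fell, among them the prolyl 4-hydroxylase subunits P4ha1 (by 0.83), P4ha2 (by 0.63), and P4hb (by 0.40), which stabilise the triple helix. Mmp19 fell by 0.79, Tgm2 by 0.55, and Nid1 by 0.42. Ccn2 rose by 1.10 and Tgfbr2 fell by 0.55.

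Cell type markers moved between the same fed vehicle and fed dex + S961 mice. Of 9 Kupffer cell markers 4 fell (Vsig4 by 0.72, Cd5l by 0.66, Adgre1 by 0.65, Csf1r by 0.63), with sums of 111 to 135 and 72.4 to 101 RPKM. Of 11 sinusoidal endothelial markers Dnase1l3 fell by 0.58 and Fcgr2b by 0.48, with sums of 150 to 163 and 107 to 142 RPKM. These falls are opposite in direction to Col4a1, but fed vehicle had the highest mean sums of the injected groups. The Kupffer mean was 125 RPKM there and 82.4 (unfed vehicle), 88.5 (fed dex), 79.7 (fed S961), and 86.2 RPKM (fed dex + S961). The endothelial mean was 157 RPKM there and 137, 126, 138, and 133 RPKM in that order. Adgre1, Cd5l, and Csf1r also fell with S961 alone, and Cd5l with dex alone. Of 10 tested stellate markers Rgs5 fell by 0.72, with sums that overlap (77.3 to 116 and 74.0 to 94.95 RPKM). Of the adipocyte list only Cidec was tested. It rose by 1.39, and by 1.35 with S961 alone, which is a change of 1 gene and not of the list. The part of all these markers in the collagen values was not tested. All 4 comparisons use the same fed vehicle mice.

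Col27a1, which differed with the meal in lean and NRF mice and with Irs1 and Irs2, was not separable among the injected groups. Its lowest and highest values were 4.71 and 9.59 RPKM in unfed vehicle, 3.24 and 9.46 in fed vehicle, 1.99 and 11.3 in fed dex, 1.55 and 5.39 in fed S961, and 3.75 and 7.10 in fed dex + S961 mice. The medians were 5.05, 7.17, 3.64, 4.03, and 5.76 RPKM in that order. The single mice were at 4.71, 5.07, 5.02, and 9.59 RPKM in unfed vehicle and 3.24, 7.71, 6.62, and 9.46 RPKM in fed vehicle. These groups overlap, and a rise with the meal as in lean and NRF mice was not called here. The differences from fed vehicle were -0.54 for dex, -0.79 for S961 (SE 0.42, adjusted p = 0.42), and -0.21 for both agents. Col5a3 ranged from 1.11 to 4.80 RPKM over all 20 mice. Replicate 4 of each group, whose library numbers in the labels lie apart from those of replicates 1 to 3, was the highest mouse of its group for Col27a1, Col5a3, Col13a1, and Col18a1 in all 5 groups.

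**Figure D5:**
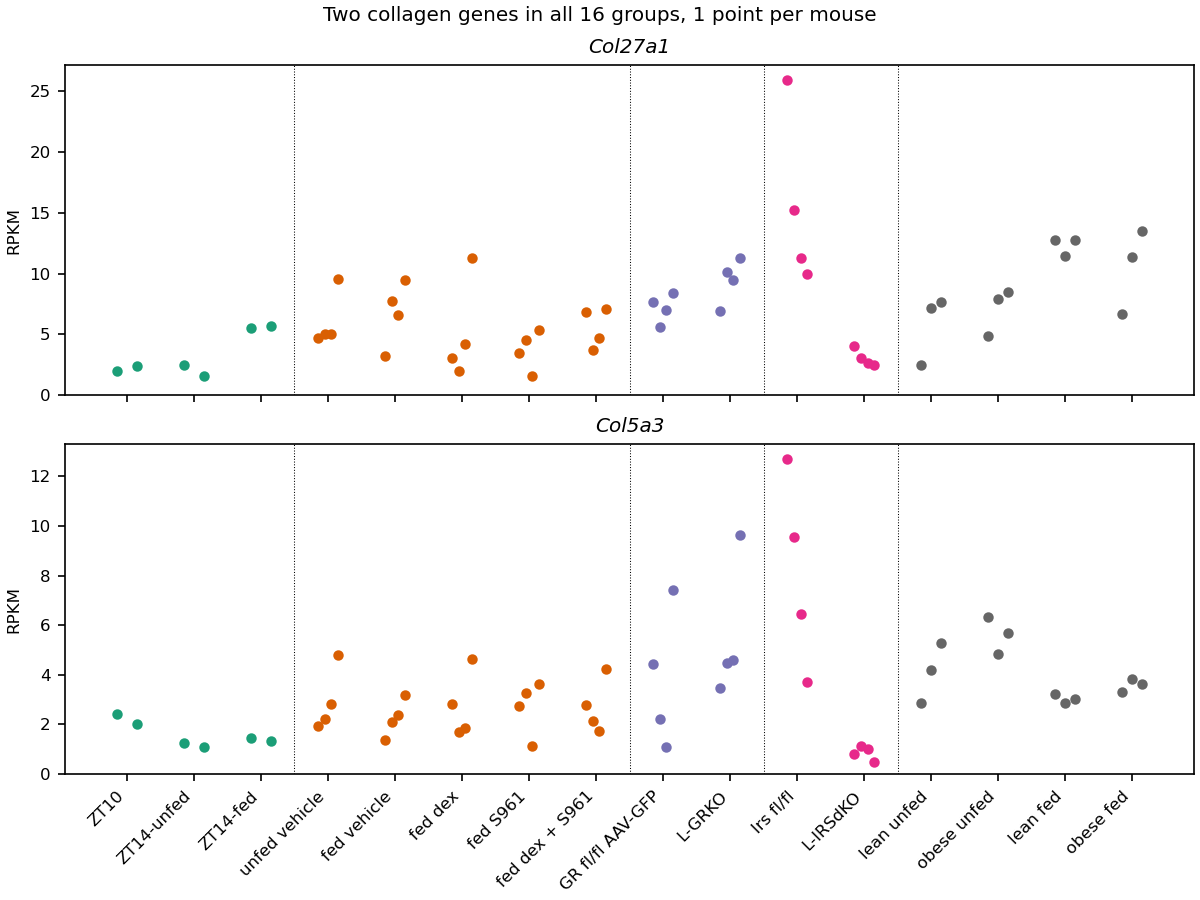
RPKM of Col27a1 (top) and Col5a3 (bottom) in the 16 groups, 1 point per mouse, with dotted lines between experiments that are not comparable in level. Col27a1 is higher in fed than unfed mice of the NRF and lean groups, and both genes are lowest within their experiment in L-IRSdKO livers.

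The remaining members were low. Col20a1 passed the filter only in the L-IRSdKO experiment (0.837 to 2.81 RPKM in controls, 1.65 to 2.84 RPKM in knockouts, adjusted p = 0.22), as did Col11a2 (0.805 to 1.57 and 0.62 to 1.34 RPKM, adjusted p = 0.81). Col5a1, a type V chain at 0.315 to 1.19 RPKM over all libraries, was tested in all experiments but the injected mice and never called. Col5a2 was tested in L-IRSdKO (0.43, adjusted p = 0.28) and in NRF mice. Of the 26 that passed nowhere, Col16a1 reached the highest value, 0.849 RPKM, followed by Col12a1 (0.809) and Col4a5 (0.75). The other 23 were Col4a3, Col4a4, Col4a6, Col6a4, Col6a5, Col6a6, Col7a1, Col8a1, Col8a2, Col9a1, Col9a2, Col9a3, Col10a1, Col11a1, Col17a1, Col19a1, Col22a1, Col23a1, Col24a1, Col25a1, Col26a1, Col28a1, and Col2a1. Col2a1, the fibrillar chain of cartilage, was listed at 0 in 51 of 54 libraries and Col26a1 in 52.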

How the data were processed

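Liver RNA of 54 mice was poly(A)-enriched or, in the NRF experiment, depleted of ribosomal RNA. The authors aligned reads to mm9 with STAR and deposited RPKM on 35707 RefSeq IDs, and called regulated genes with DESeq2, whose calls were not used. A few very abundant genes can shift RPKM of all others, strand and duplicate handling are not given in the sources used here, and how the L-IRSdKO libraries came to lack very high values is not known. The authors called GR and FOXO1 peaks with HOMER and kept those shared between replicates, and the deposited lists give positions only.

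Gene symbols were found for 35407 IDs. The limma package (3.58.1, under R 4.3.3) was run for each experiment alone, with a variance trend and no block, on the log2 scale described with the values. On simulated data with 200 genes changed by 1.5 (log2), 91.5% were recovered in the obese unfed comparison, 93% in L-GRKO, and 85.5% in L-IRSdKO. Noise was drawn independently for each value. Smaller changes, such as the collagen medians of 0.37 in the obese unfed comparison and 0.21 in L-GRKO, were not simulated, so their recovery is not known. Samples were grouped by their labels. The members and lists were chosen with earlier results of these data known. Values per mouse were given for members called in an obesity or knockout comparison and for the 6 of highest mean, and those of Col1a1 were added after its values were seen. From the lists, up to 4 called genes of largest difference per comparison and the first 4 markers of a cell type could be named. Same-numbered mice of different groups deviated together (r over 0.1) in 0 of 6 pairs of mice in NRF, 1 of 4 in L-GRKO, 0 of 4 in L-IRSdKO, 3 of 18 in obesity, and 27 of 40 in the injected mice, where replicate 4 gave 0.441 to 0.605 in all 10 pairs and the other numbers -0.12 to 0.316. In no comparison made here did every pair exceed 0.1, so the numbers were not taken as pairs. The labels give the replicates as single mice, with library numbers that set replicate 4 of the injected groups apart, and name no shared litter or day. Replicates were not identical files. Peaks were placed on GENCODE genes of mm9, for 43 of 44 members, with Python 3.11.15 and pandas 2.3.3. Exons of the members share few bases with genes of the opposite strand (at most 6.07%, Col9a3). Depth is implied by the step of 1 read, since the files hold no counts.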

Additional observations from a re-analysis of the deposited data

Results flagged for a closer look

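In 72 groups of 4 mice, formed by 8 collagen genes, 4 values lay far from the others of their group by Dixon's test at 95%, and chance gives about 1 in 20. Col15a1 was at 0.202 RPKM in L-IRSdKO replicate 3, next to 0.052 RPKM. Col4a1 was at 6.66 RPKM in L-IRSdKO replicate 2, next to 5.57 RPKM. Col27a1 was at 9.59 RPKM in unfed vehicle replicate 4, next to 5.07 RPKM, and Col3a1 was at 3.78 RPKM in fed vehicle replicate 3, next to 2.38 RPKM. The response of Col15a1 to the meal differed between obese and lean mice by -1.21 on the log2 scale, by the interaction term of limma (adjusted p = 0.038, and 0.055 with no filter on low values).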

How the results depend on the processing

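The falls of Col5a3 and Col27a1 in L-IRSdKO held under all 10 alternatives (log2 -3.01 to -2.19 and -2.24 to -1.96) and with each library left out. Below, counts are of collagen genes called, and the cause of a change was not tested unless fewer genes or samples entered. At an adjusted p under 0.01 the count was 2 in L-IRSdKO (without Col13a1) and 0 for obesity in unfed mice, the meal in lean mice, the meal in obese mice, the interaction, dex + S961, the NRF meal, and ZT14-unfed against ZT10. With no filter it was 6 in L-IRSdKO, 1 for the meal in lean mice, and 0 for the interaction, the NRF meal, and ZT14-unfed against ZT10. With a mean of at least 2 RPKM it was 0 for obesity unfed, the interaction, and ZT14-unfed against ZT10, since members near 1 RPKM are then not tested. Median-ratio scaling gave 1 for the meal in lean mice, and quantile normalization gave 1 there, 2 for the meal in obese mice, and 0 for the interaction. Without the variance trend it was 3 for the meal in lean mice, with Col15a1 added. The replicate block gave 1 for the meal in lean mice and 0 for the interaction and changed no other count. Same-numbered mice did not deviate together in most experiments, whereas in the injected mice 27 of 40 pairs did (r over 0.1), most of all replicate 4, and there the block left the counts at 0 for the vehicle meal, dex, and S961 and at 1 for dex + S961. Fits of only the compared groups gave 0 for obesity unfed, the meal in obese mice, dex + S961, and ZT14-unfed against ZT10.

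Leaving out 1 library at a time (in NRF this leaves a lone mouse in a group, assumed to vary like the others), the counts were 0 to 1 for obesity unfed, 0 to 1 for obesity fed, 0 to 3 for obesity over both states (3 without obese unfed replicate 1, namely Col13a1, Col18a1, and Col5a1), 0 to 2 for the meal in lean and 0 to 2 in obese mice, 0 to 1 for the interaction, 0 in L-GRKO, 2 to 4 in L-IRSdKO, 0 for the vehicle meal, dex, and S961, 0 to 1 for dex + S961, 0 to 1 for the NRF meal, and 0 to 1 for ZT14-unfed against ZT10. Signs turned only for differences never called. Col18a1 in L-GRKO was -0.00798 by median-ratio scaling. Without 1 library, Col27a1 in obesity over both states ranged from -0.1833 to 0.1919, with -0.01741 without obese unfed replicate 3, -0.1833 without lean unfed replicate 1, and -0.04692 without obese fed replicate 3. Col27a1 ranged from -0.4678 to 0.009772 in fed obesity (the latter without obese fed replicate 1) and from -0.09805 (without lean unfed replicate 1) to 0.6304 in unfed obesity. Col4a1 in fed obesity ranged from -0.03729 (without lean fed replicate 1) to 0.2943, and Col14a1 in unfed obesity from -0.05436 (without obese unfed replicate 2) to 0.4652. The counts of members higher or lower without a library were added after the data were seen. Depth limits values near 0.5 RPKM, above all in L-IRSdKO.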

Other observations

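Without a filter on low values, 3 more collagen genes fell in L-IRSdKO livers, all under 0.5 RPKM on average and chosen after their values were seen. Col1a1 was at 0.326, 0.798, 0.415, and 0.507 RPKM in Irs fl/fl mice and 0.232, 0.161, 0.091, and 0.151 RPKM in L-IRSdKO mice, with a limma difference of -0.60 (SE 0.16, adjusted p = 0.043). Its partner chain Col1a2 had 0.13 in the same mice. Col9a3 had -0.43 (adjusted p = 0.037) and Col6a6 -0.47 (adjusted p = 0.049). At the implied depth these rest on few reads. The part of the Col9a3 exons that overlaps a gene of the other strand is 6.07%.

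The summed RPKM of the 43 collagen genes other than Col18a1 was 43.7 to 72.5 in Irs fl/fl and 38.9 to 47.9 in L-IRSdKO mice, 27.2 to 45.7 in AAV-GFP and 36.4 to 49.4 in L-GRKO mice, 29.9 to 36.9 in lean unfed and 34.3 to 54.1 in obese unfed mice, and 34.5 to 37.0 in lean fed and 28.4 to 47.0 in obese fed mice, so that every pair of groups overlaps. The 2 RefSeq IDs of Col18a1 had means of 112 and 104 RPKM over all libraries, and those of Col5a3 3.43 and 3.37 RPKM.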
